A study of Mus musculus with 10 samples.

Results

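The kelch BTB genes named Klhl or Kbtbd with a number were examined in gastrocnemius, a calf muscle made mainly of fast fibres, of control mice and of a cigarette-smoke mouse model of COPD, chronic obstructive pulmonary disease. The members are all genes of the count table whose symbol is Klhl or Kbtbd followed by a number, which gave 44 of 18025 genes. Messenger RNA was sequenced from 10 samples of wild-type C57BL/6 mice listed as 8 weeks of age, 5 with the disease state control and 5 with the disease state COPD. The labels give neither the sex of the mice nor the length of smoke exposure. Nothing in them ties each sample to a separate animal, and p-values therefore reflect only how far these samples spread, which may be technical in part.

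Kelch BTB proteins are the substrate adaptors of cullin-3 ubiquitin ligases. Their BTB domain binds the scaffold protein cullin-3, and their kelch repeats bind the protein that is to be ubiquitinated. In skeletal muscle some of them sit at the sarcomere and stabilize their partners rather than marking them for breakdown. Variants of KLHL40, KLHL41 and KBTBD13 cause nemaline myopathy in people, a disease of the thin filament.

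Library totals ran from 14085854 to 17251034 expected counts. Of the 44 members, 40 passed the filter on low counts and were tested. The other 4 were Klhl10, known from testis, and Klhl32, Klhl35 and Kbtbd6, which had 0 to 13 counts in any library. Markers of skeletal muscle fibres, most of them fast-fibre genes, were abundant in every library, with summed levels of 173000 to 258000 TPM (a transcript level scaled for gene length and for the library's total). The 7 slow-fibre markers summed to 1360 and 937 TPM in control replicates 1 and 4, to 190 to 251 TPM in the other controls and to 100 to 453 TPM in COPD. Macrophage markers summed to 103 to 180 TPM in control and 41.5 to 134 TPM in COPD. Tenocyte markers summed to 30.9 to 57.9 TPM in control and 42.1 to 102 TPM in COPD, with 4 of 5 above 0 and a median log2 fold change of 1.08. The 8 lymphocyte markers all fell below the filter, at 1.26 to 3.63 TPM in all. The Y-linked transcripts Ddx3y, Eif2s3y and Kdm5d together gave 1118 to 1974 counts in the controls and COPD replicates 2 and 3, and 3 or 4 counts in COPD replicates 1, 4 and 5. Libraries with and without Y-linked transcripts do not come from the same animal. Sex thus appears mixed among the COPD samples but not among the controls. It is therefore partly confounded with disease state, and the fold changes below cannot fully tell them apart. In bulk muscle, fewer cells of a type and less RNA per cell cannot be told apart.

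The upstream sequences of 5 muscle-related members are shown first, chosen because each holds a muscle-related motif. They are the 4 members with a loose MEF2 pattern, and Klhl40 with an E-box. The sequences are the 250 bases before the RefSeq transcription start, 5′ to 3′ on the gene's strand. Their build is GRCm38.p6, while the submitters' processing notes name mm9. RefSeq entries matched 37 of the 44 members by symbol. A loose pattern for MEF2 factors of muscle was written CTA, then 4 bases of any kind, then TAG. The usual MEF2 site holds only A or T in those 4 bases. This pattern and the letters CAGCTG, an E-box bound by myogenic factors, were searched on both strands, each being its own reverse complement. Capitals mark the matches.
Klhl41 (chr2:69669870-69670119, plus strand): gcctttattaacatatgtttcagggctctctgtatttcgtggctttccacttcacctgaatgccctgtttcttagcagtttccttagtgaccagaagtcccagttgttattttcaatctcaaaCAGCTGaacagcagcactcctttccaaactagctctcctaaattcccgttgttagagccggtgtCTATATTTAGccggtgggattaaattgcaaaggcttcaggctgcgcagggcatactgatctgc
Klhl33 (chr14:50897484-50897733, minus strand): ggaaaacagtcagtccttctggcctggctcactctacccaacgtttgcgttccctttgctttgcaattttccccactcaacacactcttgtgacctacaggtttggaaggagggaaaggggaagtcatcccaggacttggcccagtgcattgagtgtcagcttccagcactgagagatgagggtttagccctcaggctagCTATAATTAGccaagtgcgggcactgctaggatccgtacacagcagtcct
Kbtbd12 (chr6:88627430-88627679, minus strand): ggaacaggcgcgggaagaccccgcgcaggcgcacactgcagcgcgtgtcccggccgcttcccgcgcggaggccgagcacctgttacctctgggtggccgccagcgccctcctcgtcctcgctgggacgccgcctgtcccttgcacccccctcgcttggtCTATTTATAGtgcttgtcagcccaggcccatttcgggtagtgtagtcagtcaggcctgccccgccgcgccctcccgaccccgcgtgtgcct
Kbtbd13 (chr9:65391653-65391902, minus strand): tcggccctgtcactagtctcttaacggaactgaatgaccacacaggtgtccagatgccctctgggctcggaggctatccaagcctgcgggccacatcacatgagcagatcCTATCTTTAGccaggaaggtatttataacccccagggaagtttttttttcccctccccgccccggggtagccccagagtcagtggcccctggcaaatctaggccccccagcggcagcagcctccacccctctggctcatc
Klhl40 (chr9:121777357-121777606, plus strand): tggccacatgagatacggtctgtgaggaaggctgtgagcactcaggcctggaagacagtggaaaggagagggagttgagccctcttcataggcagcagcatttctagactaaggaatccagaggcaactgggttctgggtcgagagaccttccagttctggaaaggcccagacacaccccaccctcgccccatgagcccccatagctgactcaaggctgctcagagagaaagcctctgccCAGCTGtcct

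The loose MEF2 pattern was found upstream of 4 of the 37 members, which were Klhl41, Klhl33, Kbtbd12 and Kbtbd13. All 4 belong to a list of 10 muscle-related members (Klhl21, Klhl30, Klhl31, Klhl33, Klhl34, Klhl38, Klhl40, Klhl41, Kbtbd12 and Kbtbd13), of which 8 had a RefSeq entry, and 0 of the 29 other members held the pattern. A gene can have several windows, and by windows 4 of 49 from members held it, against 3.2% of all 32851 windows of this length. A further window of Klhl33 (chr14:50895353-50895602) did not hold it. The pattern began 63 bases before the start of Klhl41, 50 before that of Klhl33, 91 before that of Kbtbd12 and 140 before that of Kbtbd13. The match of Kbtbd13 has a C among its middle bases, unlike the usual site. Those of Klhl41, Klhl33 and Kbtbd12 have only A and T there. The E-box letters were found in 4 of the 8 muscle-related members and in 5 of the 29 others. Those 4 were Klhl41, Klhl40, Klhl34 and Klhl21, the last also an adaptor of cell division. By windows, 10 of 49 from members held the letters, against 13% of all windows. The CArG box of serum response factor was in 0 of the 37 members and in 1.47% of all windows. The window of Klhl31 held none of these patterns. The list was drawn up with levels in these data known, and a match of letters is a description and not a site of binding.

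Transcript levels per length spanned a wide range within the family. Klhl41 had a mean of 349 TPM over the 10 libraries, Klhl40 of 122, Klhl31 of 89.3 and Klhl30 of 68.3 TPM. Next came Klhl21 at 37.3, Klhl33 at 33.5 and Klhl38 at 24.5 TPM. Klhl41 lay above Klhl40 in every library, at 222 to 539 TPM against 79.6 to 205 TPM. The ranges of Klhl40 and Klhl31 (73.3 to 118 TPM) overlapped, as did those of Klhl31 and Klhl30 (42.2 to 91.6 TPM). In all, 12 members had a mean of at least 10 TPM, 18 of 1 to 10 TPM and 14 below 1 TPM. The median of the tested members' means was 4.98 TPM, against 7.44 TPM over all tested genes.

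**Figure D1:**
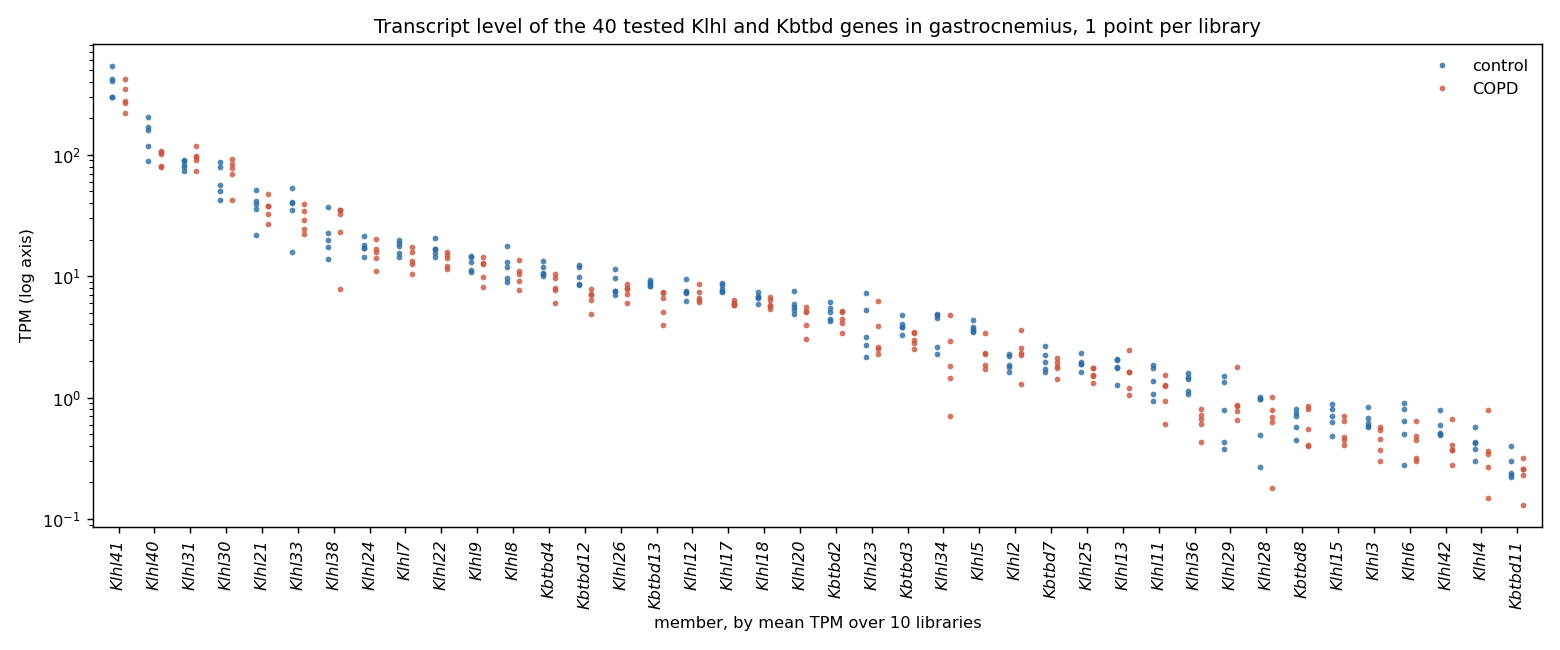
TPM of the 40 tested members on a log axis, ordered by their mean, with 1 point per library (5 control in blue, 5 COPD in red). Klhl41 is highest at a mean of 349 TPM and Kbtbd11 lowest at 0.259 TPM, and the points of the groups mix for most members.

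Together the 44 members summed to 852 to 1250 TPM in control and 709 to 909 TPM in COPD. The 4 muscle members Klhl31, Klhl38, Klhl40 and Klhl41 made up 66.6 ± 3.17% (control) and 64.6 ± 3.14% (COPD) of that sum (SD, n = 5 each), with overlapping ranges of 61.7 to 69.7% and 60.6 to 67.8%. Klhl41 alone made up 34.3 to 46.0% in control and 31.3 to 46.9% in COPD. The make-up of the family transcripts by this measure therefore overlapped between the groups.

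COPD was compared with control across 12697 genes by the quasi-likelihood test of edgeR (p-values adjusted by Benjamini-Hochberg), to ask which members differ in the disease model. At an adjusted p under 0.05, 0 of the 40 tested members passed, against 8 genes or 0.0630% of all tested. DESeq2, without the low-count filter, also called 0 of the 44 members, where it called 2.31% of all genes. At an unadjusted p under 0.05 edgeR listed 5 members or 12.5%, against 14.6% of all tested genes. Of these, 1 was higher in COPD (2.5% of members, 7.94% of genes) and 4 were lower (10% of members, 6.64% of genes). DESeq2 listed 5 of 44 or 11.4% at that level, against 11.4% of all genes. Of those, 1 was higher (2.27%, against 6.56% of genes) and 4 were lower (9.09%, against 4.82%). These shares lie near the background, and differences below the adjusted threshold are given here as values. Of the 40 members, 25 or 62.5% had a log2 fold change below 0, against 52.0% of all tested genes. The median log2 fold change was -0.05 over the members and -0.01 over all tested genes.

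**Figure D2:**
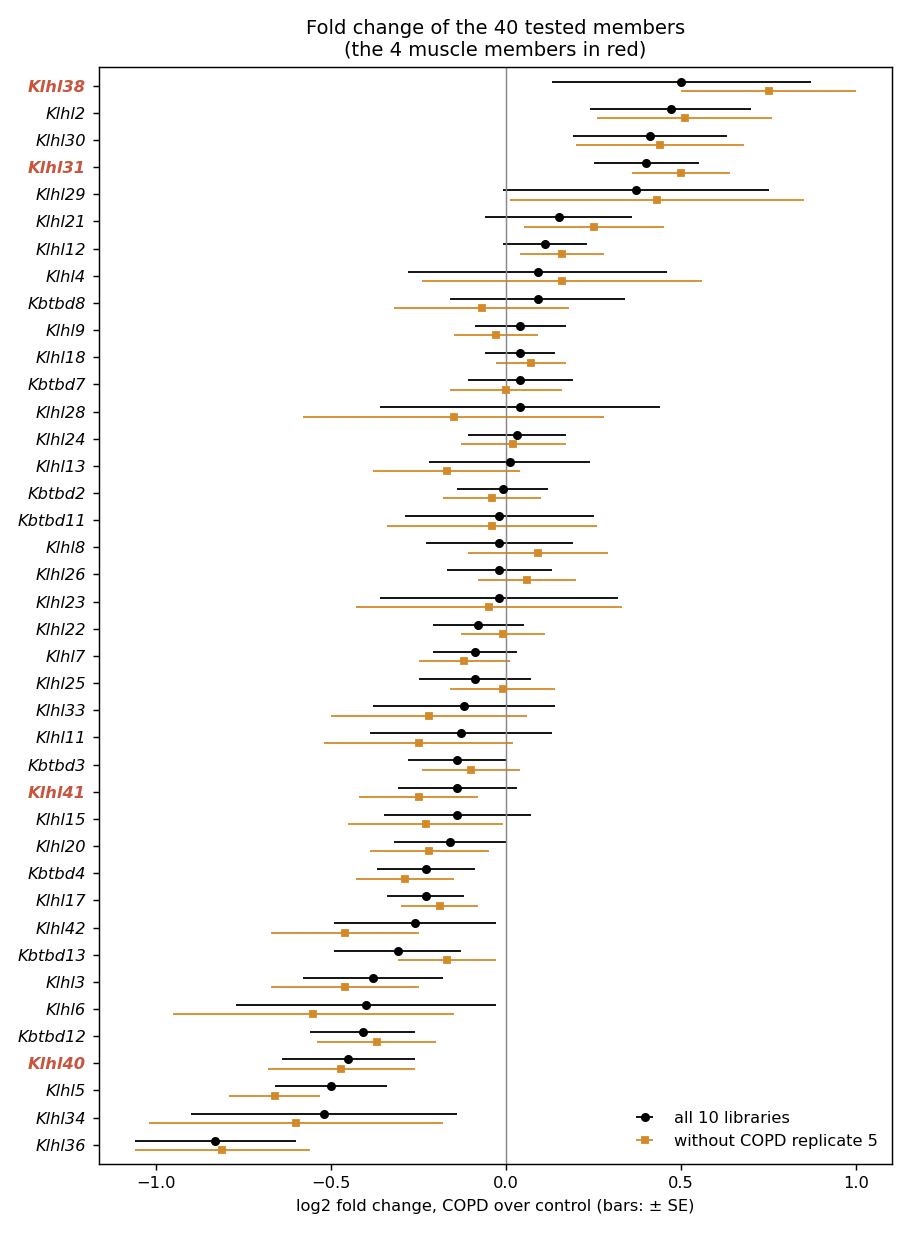
Log2 fold change of COPD over control (± SE) for the 40 tested members, over all 10 libraries (black circles) and without COPD replicate 5 (orange squares), with the 4 muscle members in red. Values run from -0.83 for Klhl36 to 0.50 for Klhl38, and the muscle members lie on both sides of 0.

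The 4 muscle members did not share a direction. Klhl31 and Klhl38 had log2 fold changes above 0 and Klhl40 and Klhl41 below 0, with a median of 0.13 against -0.05 for the 36 other tested members. These medians are a description without a test. On the TPM scale (limma on log2(TPM + 1)) the values were 0.18 for Klhl31, 0.17 for Klhl38, -0.60 for Klhl40 and -0.34 for Klhl41, where the median of all genes was -0.18.

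Klhl31, whose loss causes a myopathy in mice and which acts on the cross-linker filamin C, stood at 279, 308, 364, 255 and 279 CPM in control replicates 1 to 5 (CPM, counts scaled to a common TMM-adjusted library total). In COPD replicates 1 to 5 it stood at 516, 394, 393, 376 and 284 CPM. COPD replicates 1 to 4 lay above every control and COPD replicate 5 lay among them, so the groups overlapped. The log2 fold change was 0.40 ± 0.15 (SE; unadjusted p = 0.0215, adjusted p = 0.259 by edgeR). Without COPD replicate 5 it was 0.50 ± 0.14 (adjusted p = 0.0712 by edgeR). DESeq2 without that library called Klhl31 higher (log2 fold change 0.51, adjusted p = 0.00908), in a setting that called 5.83% of all genes.

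Klhl38, a muscle-enriched member, had the widest spread of the 4, with an SD of log2 CPM of 0.53 in control and 0.98 in COPD. Its values were 21.3, 23.9, 31.8, 16.6 and 43.0 CPM in control replicates 1 to 5 and 49.7, 53.1, 49.2, 31.5 and 10.5 CPM in COPD replicates 1 to 5. COPD replicates 1 to 3 exceeded every control, and COPD replicate 5 was the lowest of all 10 libraries. The log2 fold change was 0.50 ± 0.37 (adjusted p = 0.574 by edgeR). Without COPD replicate 5 it was 0.75 ± 0.25 (adjusted p = 0.127), which moved it by 1.5 times.

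Klhl40, which stabilizes nebulin and leiomodin-3 on the thin filament, stood at 121, 159, 250, 226 and 266 CPM in the controls and 135, 135, 168, 152 and 157 CPM in COPD. Control replicates 3, 4 and 5 lay above every COPD library, while control replicate 1 lay below all of them. The spread was wider in control (204 ± 61.9 CPM) than in COPD (150 ± 14.4 CPM; SD, n = 5 each). The log2 fold change was -0.45 ± 0.19 (unadjusted p = 0.0364, adjusted p = 0.305 by edgeR).

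Klhl41, the most abundant member, which keeps nebulin stable, stood at 586, 412, 477, 561 and 726 CPM in the controls and 492, 384, 430, 549 and 648 CPM in COPD. The groups covered nearly the same range. The log2 fold change was -0.14 ± 0.17 (adjusted p = 0.757 by edgeR). Without control replicate 5, the library with the highest value, it was -0.02, and without COPD replicate 5, the highest of its group, it was -0.25.

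Within control the median SD of log2 CPM was 0.40 over the 4 muscle members and 0.24 over the other tested members, and within COPD it was 0.30 and 0.31. Across the 10 libraries, Klhl31 and Klhl38 varied together with a Pearson r of 0.71 (permutation p = 0.0203, adjusted p = 0.122 over the 6 pairs of muscle members). Spearman's rho was 0.75 (permutation p = 0.0175, adjusted p = 0.105), so the relation did not pass the correction. Without COPD replicate 1 and control replicate 4, the libraries farthest from the median of Klhl31, r was 0.63. With the group means removed it was 0.74, and over the 7 libraries with Y-linked transcripts it was 0.76. Klhl40 and Klhl41 had r = 0.35 (permutation p = 0.318, adjusted p = 0.382) and rho = 0.20 (permutation p = 0.581, adjusted p = 0.697). Klhl31 and Klhl41 had r = -0.56 (permutation p = 0.0956, adjusted p = 0.287) and rho = -0.68 (permutation p = 0.0349, adjusted p = 0.105). Leaving out the farthest libraries in the same way, r was 0.11 for Klhl40 with Klhl41 and -0.72 for Klhl31 with Klhl41. The remaining 3 pairs had r between -0.45 and -0.02, with adjusted permutation p of 0.382 to 0.960, and rho between -0.54 and -0.09, with adjusted permutation p of 0.229 to 0.809.

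**Figure D3:**
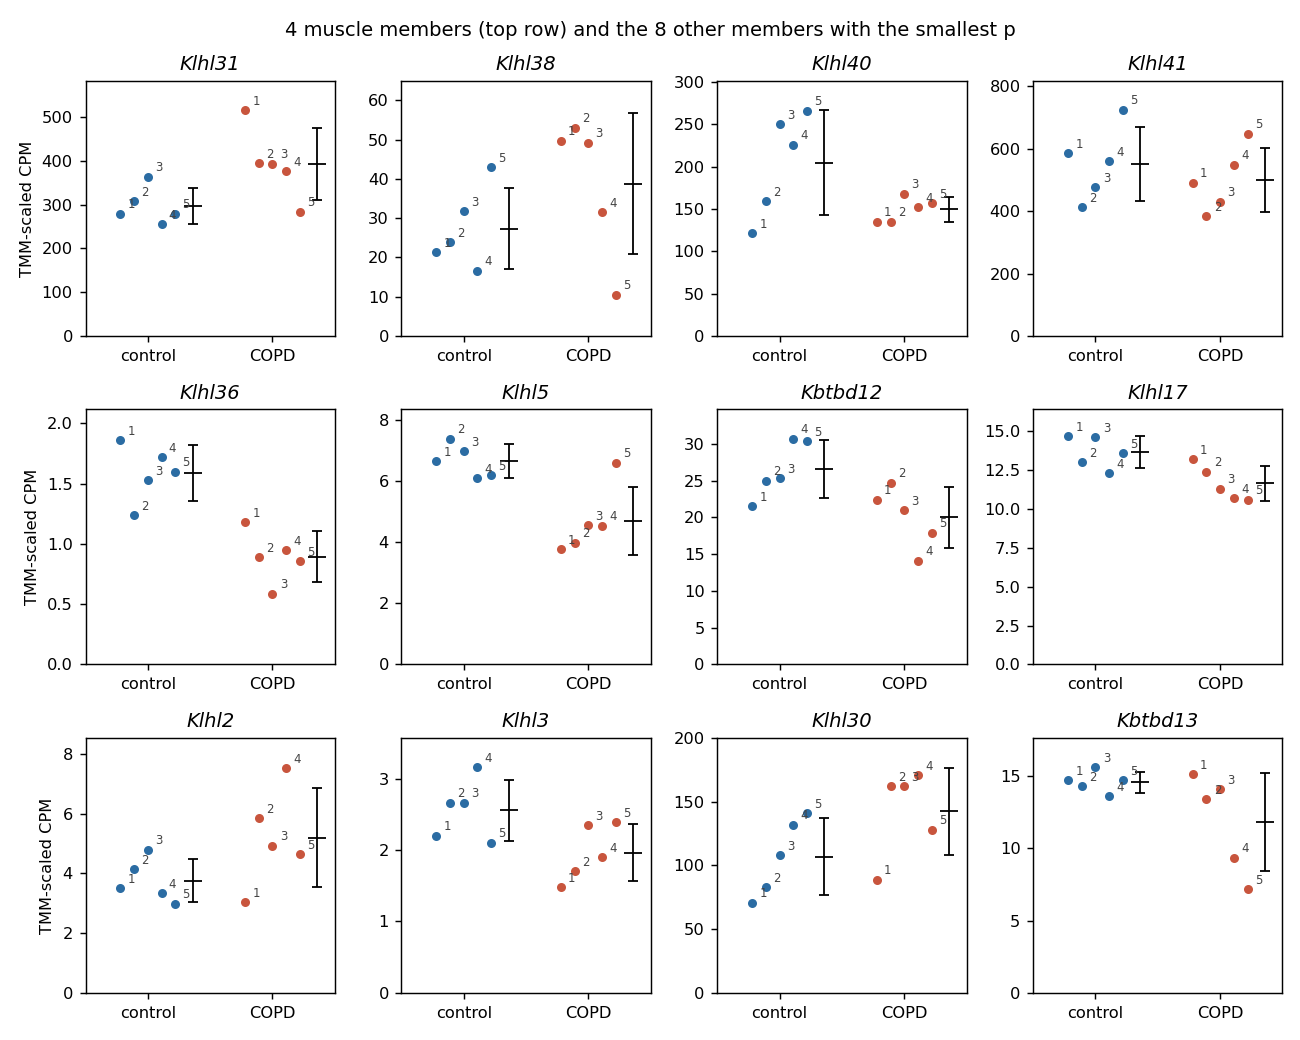
TMM-scaled CPM in each library (numbers are replicates) for the 4 muscle members in the top row and the 8 other members with the smallest p below, with mean ± SD beside each group (n = 5). Klhl36 alone separates the groups, from 0.588 to 1.18 CPM in COPD and 1.24 to 1.86 CPM in control, and COPD replicate 5 is lowest for Klhl38 at 10.5 CPM.

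Among the other muscle-related members, Kbtbd12 and Kbtbd13 were lower in COPD without passing the test. Kbtbd12 stood at 21.5, 25.0, 25.3, 30.7 and 30.4 CPM in the controls and 22.4, 24.7, 21.0, 14.1 and 17.9 CPM in COPD. COPD replicates 3, 4 and 5 lay below every control (log2 fold change -0.41 ± 0.15, unadjusted p = 0.0214, adjusted p = 0.259 by edgeR). With a term for Y-linked transcripts it was -0.22 (adjusted p = 0.601). Kbtbd13, whose protein binds the thin filament, lay within a narrow band in control, at 13.6 to 15.6 CPM. In COPD it was at 15.1, 13.4, 14.1, 9.36 and 7.16 CPM, with only COPD replicates 4 and 5 well below the controls (log2 fold change -0.31 ± 0.18, adjusted p = 0.466 by edgeR). For Kbtbd13 it was -0.17 without COPD replicate 5, and with a term for Y-linked transcripts it was -0.09.

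Klhl30 had a wide spread in both groups, at 70.8, 83.1, 108, 132 and 141 CPM in the controls and 88.7, 162, 162, 171 and 128 CPM in COPD. COPD replicates 2, 3 and 4 were above every control (log2 fold change 0.41 ± 0.22, adjusted p = 0.419 by edgeR). Klhl33 was at 127, 164, 150, 50.1 and 107 CPM in the controls and 116, 87.6, 88.9, 120 and 139 CPM in COPD, a log2 fold change of -0.12 ± 0.26 (adjusted p = 0.878). Without control replicate 4 the value for Klhl33 was -0.32, without control replicate 2 it was 0.02, and with a term for Y-linked transcripts it was -0.44. Control replicate 4 was by far the lowest for Klhl33, and also the lowest control for Klhl21 and Klhl38. That library had the higher slow-fibre marker sum named above, as did control replicate 1, where Klhl33 was not low. Its part in these values was not tested. Klhl34 ranged from 2.28 to 4.87 TPM in control and from 0.70 to 4.78 TPM in COPD. Its log2 fold change was -0.52 ± 0.38 (adjusted p = 0.574 by edgeR). With a term for Y-linked transcripts it was -1.38 ± 0.47 (adjusted p = 0.161 by edgeR). Of the 9 members assigned to sarcomere and muscle, 6 lay below 0, against 52.0% of all tested genes. Their median log2 fold change was -0.14.

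Klhl36 was the only tested member whose groups did not overlap on the TMM-scaled CPM scale, 1 of 40 or 2.5%, against 2.84% of all tested genes. It stood at 1.86, 1.24, 1.53, 1.72 and 1.60 CPM in the controls and 1.18, 0.888, 0.588, 0.950 and 0.857 CPM in COPD. Every COPD library was below every control. The log2 fold change of -0.83 ± 0.23 was the largest decrease among the members and had the smallest p (unadjusted p = 0.00341, adjusted p = 0.136 by edgeR). The gene had 8 to 33 counts per library, which limits the precision of these values. On the TPM scale, where no TMM factor is applied, 5 members separated the groups, all lower in COPD: Klhl36, Klhl5, Kbtbd12, Kbtbd13 and Klhl17. That is 12.5% of the tested members, against 5.60% of the same genes overall. TPM values were lower in COPD for genes in general, with a median log2 difference of -0.18 over genes of at least 1 TPM. Limma on log2(TPM + 1) without a filter called Klhl17 (-0.38, adjusted p = 0.0400) and Klhl36 (-0.50, adjusted p = 0.0481) lower, where it called 0.483% of all genes and the median of all genes was -0.10.

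The call of Klhl5 depended on 1 library. It stood at 6.66, 7.40, 6.98, 6.10 and 6.19 CPM in the controls and 3.77, 3.99, 4.56, 4.55 and 6.61 CPM in COPD. COPD replicates 1 to 4 lay below every control and COPD replicate 5 lay among the controls. The log2 fold change was -0.50 ± 0.16 over all 10 libraries (unadjusted p = 0.00943, adjusted p = 0.201 by edgeR). Without COPD replicate 5 Klhl5 fell by 0.66 ± 0.13 on the log2 scale (adjusted p = 0.0273), the 1 of 40 members called there by edgeR or 2.5%, against 3.21% of all genes. DESeq2 without that library also called Klhl5 lower (-0.65, adjusted p = 0.00501).

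COPD replicate 5, on which the calls of Klhl5 and Klhl31 depend, stood apart in markers of other cells. Adipocyte markers summed to 105 TPM there, against 5.49 to 16.1 TPM in the other COPD libraries and 10.2 to 72.5 TPM in control. Neutrophil and red cell markers summed to 1720 TPM, against 132 to 496 and 79.4 to 1240 TPM, with 1540 TPM from the haemoglobin gene Hba-a1. The neutrophil genes S100a8 and S100a9 were at 67.2 and 87.3 TPM there, the highest of COPD, but at 254 and 331 TPM in control replicate 1. Macrophage markers summed to 134 TPM, against 41.5 to 88.8 and 103 to 180 TPM. The part of these markers in the results was not tested. For the family itself, COPD replicate 5 lay within the range of the controls for 24 of the 40 tested members, against 25, 25, 20 and 21 members in COPD replicates 1 to 4. With a term for Y-linked transcripts, COPD replicates 2 and 3 carry the comparison with control. In that fit edgeR called 0 of the 40 members, where it called 165 genes higher and 51 lower of 12697 tested. Klhl31 then had a log2 fold change of 0.41 ± 0.21, Klhl38 of 0.90 ± 0.44, Klhl40 of -0.43 ± 0.27 and Klhl41 of -0.44 ± 0.21.

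**Figure D4:**
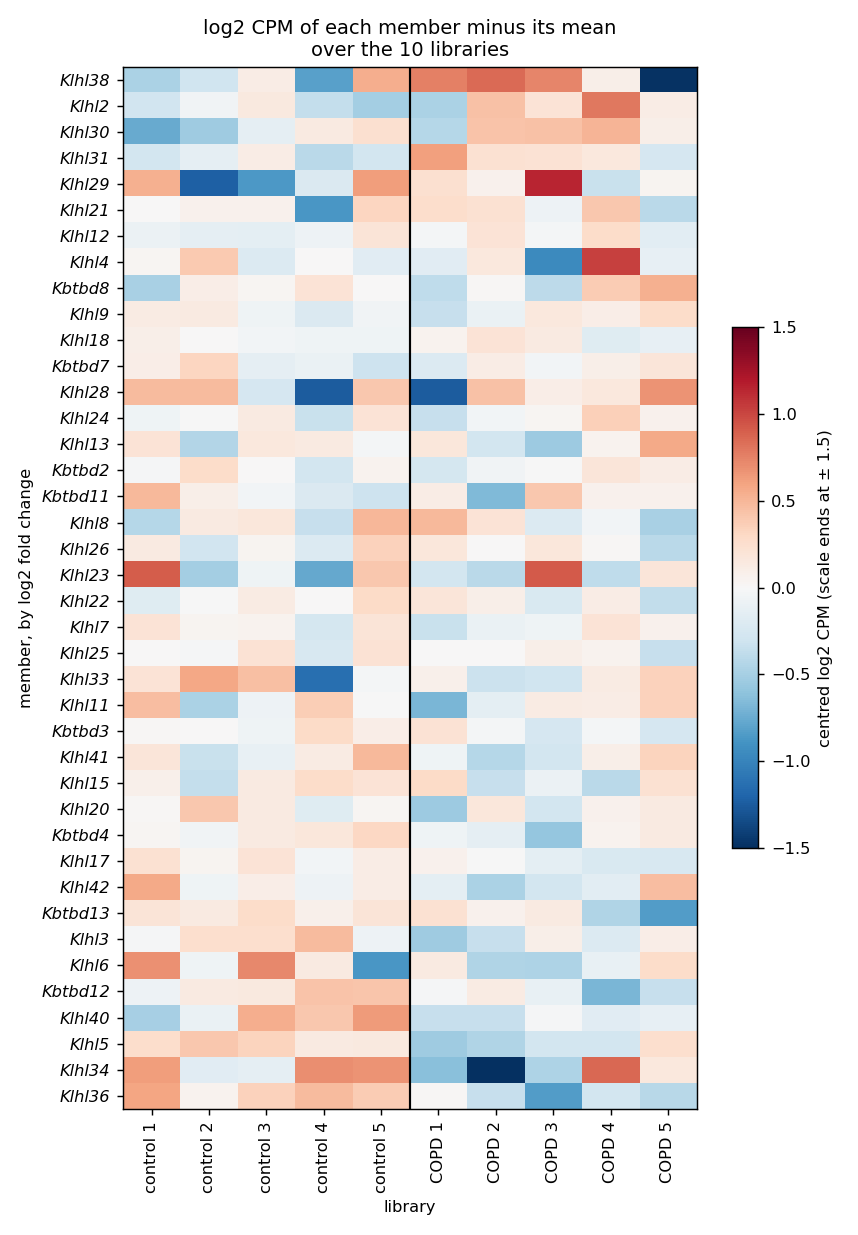
Log2 CPM of each tested member minus its own mean over the 10 libraries, with members in order of log2 fold change and the groups parted by a black line. The largest deviations are -1.62 for Klhl34 in COPD replicate 2 and -1.48 for Klhl38 in COPD replicate 5.

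No member that acts in cell division passed the adjusted threshold, which 0.0630% of all tested genes passed. Their list held Klhl9, Klhl13 and Klhl21, which direct ubiquitination of Aurora B, with Klhl18, Klhl22 and Klhl42. Of these 6 members, 2 were below 0 and 4 above, from -0.26 to 0.15 on the log2 scale, and 0 had an unadjusted p under 0.05. Over all tested genes 52.0% lay below 0 and 14.6% had an unadjusted p under 0.05 by edgeR. With so few members, a count of 0 says little about this group. Klhl21, the most abundant of them, was at 85.5, 89.8, 89.1, 46.9 and 107 CPM in the controls and 103, 101, 81.2, 114 and 64.4 CPM in COPD, a log2 fold change of 0.15 ± 0.21 (adjusted p = 0.792 by edgeR). Its value was -0.04 with limma on log2(TPM + 1) and 0 without control replicate 4.

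Members tied to kinase, translation and nutrient signalling ranged from -0.38 to 0.47, with 5 of 6 below 0 and a median of -0.11. Over all tested genes 52.0% lay below 0. Klhl3, which targets WNK kinases in the kidney, was at 2.2, 2.66, 2.66, 3.16 and 2.10 CPM in the controls and 1.48, 1.70, 2.35, 1.90 and 2.39 CPM in COPD. COPD replicates 1, 2 and 4 lay below every control (log2 fold change -0.38 ± 0.20, adjusted p = 0.418 by edgeR). Its close relative Klhl2 lay on the other side of 0. It was at 3.50, 4.14, 4.79, 3.33 and 2.98 CPM in the controls and 3.03, 5.84, 4.93, 7.53 and 4.65 CPM in COPD, a log2 fold change of 0.47 ± 0.23 (adjusted p = 0.358). Without COPD replicate 4 the value for Klhl2 was 0.30. The difference between Klhl2 and Klhl3 was not tested. Kbtbd2, which acts on the insulin signalling subunit p85α, was at 5.09 ± 0.772 TPM (control) and 4.43 ± 0.724 TPM (COPD; SD, n = 5 each).

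Members tied to secretion, the cytoskeleton, ribosome assembly and Rac signalling ranged from -0.50 for Klhl5 to 0.11 for Klhl12, an adaptor of COPII coat assembly. Of 8 tested, 3 were below 0 and 5 above, where 52.0% of all tested genes lay below 0. Klhl17, which binds actin, was at 14.7, 13.0, 14.6, 12.3 and 13.6 CPM in the controls and 13.2, 12.4, 11.3, 10.7 and 10.6 CPM in COPD. COPD replicates 3, 4 and 5 lay below every control (log2 fold change -0.23 ± 0.11, unadjusted p = 0.0537, adjusted p = 0.350 by edgeR). Klhl24, known from skin, where it acts on keratin 14, had a mean of 80.5 ± 11 CPM (control) and 82.4 ± 14.4 CPM (COPD; SD, n = 5 each), within 64.3 to 92.9 and 63.1 to 103 CPM. Its log2 fold change of 0.03 ± 0.14 turned to -0.17 with limma on log2(TPM + 1), to -0.04 without control replicate 4 and to -0.06 without COPD replicate 4. Klhl7 stood at 36.5 ± 4.40 and 34.3 ± 4.67 CPM (SD, n = 5 each), within 29.4 to 40.2 and 27.8 to 40.3 CPM (log2 fold change -0.09 ± 0.12, and -0.02 without COPD replicate 1). Klhl6, a lymphoid member, was at 0.28 to 0.90 TPM in control and 0.30 to 0.64 TPM in COPD, in libraries where the lymphocyte markers were near 0 as given above.

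The shared ligase was measured through Cul3 and its partners. Cul3 itself was at 228, 276, 244, 273 and 285 CPM in the controls and 200, 279, 252, 248 and 221 CPM in COPD, a log2 fold change of -0.12 ± 0.11 (adjusted p = 0.667 by edgeR). It was -0.06 without COPD replicate 1 and 0.02 with a term for Y-linked transcripts. The mean level of Cul3 over the 10 libraries, 107 TPM, lay below that of Klhl41 and Klhl40 and above that of Klhl31. Its range of 74.7 to 135 TPM overlapped those of Klhl40 and Klhl31. Within COPD the means were 95.4 TPM for Cul3, 94.8 for Klhl40 and 95.3 for Klhl31. Of 26 genes of the cullin-3 ligase and of neddylation, the modification that activates cullins, 0 passed the adjusted threshold. At an unadjusted p under 0.05, 0 were higher and 2 lower, against 7.94% and 6.64% of all tested genes. Their median log2 fold change was -0.05. Nae1, a subunit of the NEDD8-activating enzyme, was at 18.1, 18.9, 18.8, 19.2 and 21.4 CPM in the controls and 16.0, 14.3, 14.6, 16.1 and 17.1 CPM in COPD. The groups did not overlap, as for 2.84% of all tested genes (log2 fold change -0.30 ± 0.09, adjusted p = 0.178 by edgeR). Subunits of the COP9 signalosome, which removes NEDD8, were Cops4 at 88.0 ± 14.4 and 71.5 ± 6.39 CPM and Cops7b at 13.3 ± 2.90 and 10.9 ± 0.907 CPM, control first (SD, n = 5 each). Their log2 fold changes were -0.30 ± 0.12 and -0.29 ± 0.14 (adjusted p = 0.282 and 0.377). Of 8 genes for other cullins and their RING partner, 6 were below 0, against 52.0% of all tested genes. Cul4b (-0.34 ± 0.11), Cul4a (-0.30 ± 0.11) and Cul1 (-0.23 ± 0.10) had an unadjusted p under 0.05 by edgeR. Over all tested genes 6.64% were lower at that level.

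Relatives outside the naming rule also failed the adjusted threshold. Keap1, the kelch BTB sensor that holds NRF2 in check, was at 84.3, 103, 82.7, 108 and 91.5 CPM in the controls and 86.3, 87.9, 74.3, 79.5 and 95.9 CPM in COPD, a log2 fold change of -0.15 ± 0.11 (adjusted p = 0.574 by edgeR). Without control replicate 4 or COPD replicate 3 it was -0.09. The list of 10 tested relatives also held Klhdc genes, which have kelch repeats but no BTB domain. Of the 10, Enc1 (0.53 ± 0.22) and the Klhdc gene Klhdc10 (0.26 ± 0.11) reached an unadjusted p under 0.05 by edgeR on the higher side. On the lower side 0 did. Over all tested genes 7.94% were higher and 6.64% lower at that level. Among 27 other BTB adaptors of cullin-3 the median was 0, with 2 on either side at that level. These were Rhobtb1 (0.64 ± 0.28) and Kctd17 (0.34 ± 0.14) on the higher side, and Abtb2 (-0.65 ± 0.23) and Btbd2 (-0.23 ± 0.09) on the lower. Abtb2 had 11.1 ± 3.54 CPM (control) and 7.04 ± 1.89 CPM (COPD), Btbd2 at 54.0 ± 4.06 and 46.2 ± 3.07 CPM and Kctd17 at 12.8 ± 1.76 and 16.1 ± 2.91 CPM (SD, n = 5 each).

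Genes for reported partners or substrates of the members, with Nfe2l2 listed for the relative Keap1, were split evenly around 0. Of 22 tested, 11 lay below it, and the median was 0. By edgeR 0 of 22 passed the adjusted threshold, while an unadjusted p under 0.05 was reached by 2 higher and 3 lower genes. Over all tested genes 7.94% were higher and 6.64% lower at that level. Eif4ebp1, a translation repressor and a substrate of KLHL25, was at 121, 176, 132, 346 and 187 CPM in the controls and 82.6, 96.7, 93.7, 80.1 and 95.4 CPM in COPD. The groups did not overlap, as for 2.84% of all tested genes (log2 fold change -1.10 ± 0.24, adjusted p = 0.0963 by edgeR). DESeq2 called Eif4ebp1 lower (-1.09, adjusted p = 0.00209), in a setting that called 2.31% of all genes. Klhl25 itself was at 1.95 ± 0.266 TPM (control) and 1.58 ± 0.178 TPM (COPD; SD, n = 5 each; log2 fold change on the CPM scale -0.09 ± 0.16). Ulk1, the autophagy kinase targeted by KLHL20, was at 96.5, 94.0, 98.7, 60.8 and 111 CPM in the controls and 128, 154, 156, 147 and 90.9 CPM in COPD. COPD replicates 1 to 4 lay above every control and COPD replicate 5 did not, with a log2 fold change of 0.55 ± 0.18 (adjusted p = 0.197 by edgeR). Without COPD replicate 5 edgeR called Ulk1 higher (0.66, adjusted p = 0.0444), where it called 3.21% of all genes. Acly, a lipogenic enzyme, was at 16.5 ± 1.11 CPM (control) and 12.8 ± 2.76 CPM (COPD; SD, n = 5 each), with a log2 fold change of -0.36 ± 0.14 (adjusted p = 0.274 by edgeR). Nfe2l2, the gene of NRF2 and 1 of the 2 higher genes, had a log2 fold change of 0.32 ± 0.13. NRF2 is a substrate of KEAP1, which is outside the naming rule.

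Of 16 thin filament and nemaline genes, Klhl40 and Klhl41 among them, 0 passed the adjusted threshold. Of the 16, 10 lay below 0, against 52.0% of all tested genes. Lmod3, the partner of KLHL40, was at 102, 96.3, 96.2, 150 and 107 CPM in the controls and 74.1, 81.9, 100, 93.9 and 90.2 CPM in COPD, a log2 fold change of -0.32 ± 0.14 (adjusted p = 0.309 by edgeR). COPD replicates 1, 2, 4 and 5 lay below every control. Neb, which encodes nebulin, was at 4910 ± 734 and 4660 ± 1010 CPM, and the KLHL31 target Flnc at 1020 ± 255 and 988 ± 413 CPM (SD, n = 5 each). Their log2 fold changes were -0.08 ± 0.16 and -0.05 ± 0.29. At an unadjusted p under 0.05, Tpm2 (0.42 ± 0.12) and Tnnc2 (0.41 ± 0.16) were higher. Tpm3 (-0.81 ± 0.31) and Tnnt1 (-1.43 ± 0.63), both slow-fibre genes, were lower, as were Lmod3 and Klhl40. Over all tested genes 7.94% were higher and 6.64% lower at that level. Tnnt1 stood at 121 and 73.7 CPM in control replicates 1 and 4, the libraries with the highest slow-fibre marker sums, and at 13.7 to 16.0 CPM in the other controls.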

How the data were processed

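Expected counts by gene symbol were deposited by the authors, and these are estimates that need not be whole (30.7% of values were not). A second deposited table gives TPM for those genes, in which each sample sums to a common total. Per the submitters' processing notes the tools were RSEM 1.2.12, HISAT2 2.0.4, DESeq2 1.4.5 and Bowtie2 2.2.5, and the build mm9, without their roles. The sources used here do not say whether counting used strand. By GENCODE M21, exons of Kbtbd4 overlap other tested genes on the opposite strand, and 0 of the 27 genes named with a fold change and per-library values do.

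Expected counts were rounded. Genes were kept by edgeR's filterByExpr, scaled by TMM and fitted across 12697 genes with edgeR 4.0.16 (glmQLFit, glmQLFTest; R 4.3.3), and p-values were adjusted by Benjamini-Hochberg (threshold 0.05). SE is the log2 fold change divided by the square root of F. CPM uses TMM-scaled totals, where 1 CPM stands for 13.5 to 18.1 counts. Correlations used log2 CPM with a prior count of 2 and 100000 permutations, two-sided. Alternatives used DESeq2 1.42.0 and limma 3.58.1, and figures matplotlib 3.10.9. Pairs of libraries differed beyond sampling noise, with chi-square over its degrees of freedom at 18.1 to 124.

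The members and lists were chosen with earlier results of these data known. Values were given for the 4 muscle members, the 8 other members with the smallest p, the 4 next most abundant, Cul3, Keap1 and the 3 smallest p of each of 3 lists. Further list genes are named because of their p or as known partners, after their values were seen. The replicate numbers are shared between groups, but deviations of same-numbered libraries correlated at -0.14 to 0.04, so no pairing was used.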

Additional observations from a re-analysis of the deposited data

Results flagged for a closer look

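Among the 27 genes given by library, each checked in both groups, 3 values lay far from the other 4 of their group, where chance flags about 1 in 20 groups. Klhl5 was at 6.61 CPM in COPD replicate 5, against 3.77 to 4.56 CPM in the other COPD libraries. Cops7b was at 18.2 CPM in control replicate 4, against 10.6 to 12.7 CPM, and its log2 fold change was -0.15 without that library. Kctd17 stood at 15.8 CPM in control replicate 3, against 11.3 to 12.5 CPM.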

How the results depend on the processing

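The count of 0 members higher and 0 lower by edgeR held with RLE, upper-quartile and library-size scaling, both other filters, a term for Y-linked transcripts, DESeq2, voom with sample weights and limma with a filter. The limma filter left 30 members to test, and Klhl36, at a mean of 0.988 TPM, was not among them. Limma on log2(TPM + 1) without a filter called 2 members lower, Klhl17 and Klhl36. Leaving out 1 library gave 0 to 1 members lower and 0 higher, the 1 being Klhl5 without COPD replicate 5. DESeq2 without that library, added after seeing the data, called 1 higher and 1 lower. The median log2 fold change of the 36 other members was -0.20 with library size alone, -0.19 and -0.23 with limma on log2(TPM + 1) and log2(TPM + 0.1), and -0.17 without the filter (26 of them are tested with it). Those scalings move the median of all genes to -0.17, -0.18, -0.21 and -0.10, against -0.01 with TMM. The muscle median ran from -0.09 to 0.18 over all settings. Signs turned for 4 of the 27 named genes. Klhl24 was at -0.11 with library size alone, -0.17, -0.18 and -0.17 with the 3 limma settings, -0.04 without control replicate 4 and -0.06 without COPD replicate 4. Klhl21 was at -0.04 in each limma setting and ran from 0 (without control replicate 4) to 0.25 with 1 library left out. Klhl33 ran from -0.32 to 0.02 (without control replicate 2) with 1 library left out and was at -0.44 with the Y-linked term, where Cul3 was at 0.02. The cause was not tested. With the replicate number as a block, 0 members were called and the medians were 0.12 (muscle) and -0.03 (others), and 0 of 5 controls correlated best with the COPD library of their own number. Near and below 1 CPM, counting error limits what can be seen. Klhl36 lay in that region, at 0.588 to 1.86 CPM and 8 to 33 counts per library.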
